A study of Mus musculus with 22 samples.

Results

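The mitochondrial genome of the mouse carries 37 genes, and all 37 were read in the hypothalamus of mice that lack the paternal copy of Snord116 and of their controls, at different times of day and after loss of sleep. They were taken as every gene whose symbol starts with mt-, which gave 13 protein genes, 2 ribosomal RNA (rRNA) genes and 22 transfer RNA (tRNA) genes of 41456 gene identifiers in the count table. All 37 passed the filter on low counts. The mutant groups are PWScrm+/p− mice, which carry a paternally inherited loss of the Snord116 small nucleolar RNA genes; the control groups are PWScrm+/p+ mice. All are on the C57BL/6J background, and the labels give neither age nor sex. By the labels, all samples are hypothalamus. They were taken at ZT6 (the sixth hour of the light period) after 6 h of sleep deprivation (SD) from 4 mutant and 4 control mice. The others were taken at ZT6 without SD from 4 mutant and 4 control mice, and at ZT0 (lights on) from 3 mutant and 3 control mice. Each library is 1 sample of polyadenylated RNA, and no number in the labels links a library of one group to a library of another.

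Each mitochondrion holds its own small circular DNA, which is transcribed along nearly its full length on both strands. The long transcripts are cut mostly at the tRNA genes that stand between the other genes, so the tRNA, rRNA and messenger RNAs come from the same precursors and then differ by processing and decay. The protein genes encode core subunits of the respiratory chain and of ATP synthase, and neurons draw most of their ATP from that chain. The other subunits, the proteins of the mitochondrial ribosome and the enzymes that copy and cut mitochondrial RNA are encoded in the nucleus. Mitochondrial messenger RNAs have short poly(A) tails, the rRNAs have shorter ones and mature tRNAs have none, so a library made by poly(A) selection reads the 3 classes with unequal efficiency.

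The sequences decide which of these genes can be counted apart from each other and from copies in the nuclear genome. Chromosome 1 (GRCm38, minus strand) carries 7 annotated unprocessed pseudogenes between positions 24611535 and 24616197 that match mitochondrial protein genes. The first 60 bases of mt-Co2, which encodes a subunit of cytochrome c oxidase, and of the chromosome 1 entry Gm28661 are the same letter for letter, and all 681 of 681 bases of Gm28661 match mt-Co2:
mt-Co2, chrM:7013-7072, plus strand: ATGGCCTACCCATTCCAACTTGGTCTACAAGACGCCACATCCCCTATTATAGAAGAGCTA
Gm28661, chr1:24615506-24615565, minus strand: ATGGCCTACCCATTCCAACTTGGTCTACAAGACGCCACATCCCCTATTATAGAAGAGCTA
The copy of mt-Co1, the catalytic subunit of the same complex, is the entry Gm29216. It has 486 of 492 bases in common with mt-Co1, and all 6 differing bases lie at its start, shown here with the differing bases in capitals:
mt-Co1, chrM:6381-6413, plus strand: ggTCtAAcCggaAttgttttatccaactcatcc
Gm29216, chr1:24616165-24616197, minus strand: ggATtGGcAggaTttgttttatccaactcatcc
With positions counted from 1 at the start of mt-Co1, these are T1056A, C1057T, A1059G, A1060G, C1062A and A1066T, the mitochondrial base first. The copy of mt-Nd3, a subunit of NADH dehydrogenase, is the entry Gm28438, which matches 344 of 345 bases and differs by T3C from the start of mt-Nd3, the capital here:
mt-Nd3, chrM:9459-9491, plus strand: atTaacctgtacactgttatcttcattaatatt
Gm28438, chr1:24613087-24613119, minus strand: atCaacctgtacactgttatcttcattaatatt
The copies of mt-Co3 (Gm28437, 783 of 783 bases), mt-Atp6 (Gm10925, 678 of 678), mt-Nd4 (Gm28439, 876 of 876) and mt-Nd4l (Gm10222, 294 of 294) hold no differing base. A read inside an identical stretch can be given to either entry, so the level of these 7 mitochondrial genes is uncertain by the amount counted on their copies.

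Neighbouring mitochondrial genes also share bases. The reading frames of mt-Atp8 and mt-Atp6, both subunits of ATP synthase, overlap by 43 bases, and those of mt-Nd4l and mt-Nd4, both subunits of NADH dehydrogenase, overlap by 7 bases. The shared bases are in capitals:
mt-Atp8 and mt-Atp6, chrM:7907-7989, plus strand: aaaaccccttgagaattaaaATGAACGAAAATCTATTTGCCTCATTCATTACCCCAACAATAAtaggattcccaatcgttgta
mt-Nd4l and mt-Nd4, chrM:10140-10200, plus strand: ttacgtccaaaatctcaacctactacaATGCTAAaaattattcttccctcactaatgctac
Each of these pairs is made as 1 messenger RNA, so the split of its reads between the 2 genes depends on the counting. The tRNA gene mt-Ts1, one of the serine tRNAs, lies on the minus strand and ends 3 bases inside the end of mt-Co1, on the opposite strand (capitals):
mt-Ts1, chrM:6870-6938, minus strand: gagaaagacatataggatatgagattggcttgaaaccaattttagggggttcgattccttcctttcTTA
The labels do not say that reads were counted by strand. Reads from mt-Nd6, the only protein gene of the minus strand, and from the 8 minus-strand tRNA genes therefore cannot be told apart from antisense reads at the same place.

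Depth and tissue were unequal. Library totals ran from 3120328 to 46965594 counts in 21 libraries, and mutant ZT6 replicate 2 held 7348 counts. Entries named Snord116 held 0 counts in all 11 mutant libraries and 0 to 1561 in the 11 control libraries, of which 3 were at 0. In mutant ZT0 replicates 1 to 3 and mutant ZT6 replicate 3, a list of 13 myelin genes summed to 30.8 to 46.4 CPM (counts scaled to a common total of 1000000 per library), against 3800 to 8849 CPM in the 17 libraries described as hypothalamic from here on, which exclude those 4 and the library of 7348 counts. In the same 4 libraries, fibroblast and meningeal genes summed to 7971 to 24287 CPM, against 320.4 to 2550.1 CPM in the 17. A list of pituitary hormone genes exceeded 500 CPM in mutant SD replicate 1 (27898 CPM), mutant SD replicate 4 (1211 CPM) and control ZT6 replicate 1 (1902 CPM). Sample titles carry a running number, which falls into 3 sets: numbers 1 to 4 (index set 1), 5 to 18 (index set 2) and 43 to 46 (index set 3). Nothing in the labels says what the sets are, and all control ZT0 libraries belong to index set 2. In bulk tissue, fewer cells of a type and less RNA per cell cannot be told apart.

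The messenger RNAs of cytochrome c oxidase had the highest means of the protein genes. Per kilobase of gene in the 17 hypothalamic libraries, mt-Co2 averaged 10529 ± 4689 CPM (SD, n = 17), mt-Co1 averaged 9426 ± 2872 CPM and mt-Co3, the remaining subunit of that complex encoded here, averaged 9046 ± 3277 CPM. These 3 do not differ beyond their spread, and mt-Co2 was the highest protein gene in 11 libraries, mt-Co1 in 5 and mt-Co3 in 1. Counts on the chromosome 1 copies are left out here. The copy of mt-Co1, Gm29216, held 1803 to 8926 CPM in these libraries, so the order of the 3 is uncertain. Next came mt-Atp6 with 7873 ± 3002 CPM per kilobase, mt-Cytb, the cytochrome b subunit of the third respiratory complex, with 5354 ± 1361 CPM per kilobase, and mt-Nd1 with 4586 ± 1162 CPM per kilobase. The other subunits of NADH dehydrogenase (complex I) were lower per kilobase: mt-Nd4 averaged 3123 ± 984 CPM, mt-Nd6 2961 ± 1300 CPM, mt-Nd2 2807 ± 755 CPM, mt-Nd3 2352 ± 1151 CPM, mt-Nd4l 1574 ± 624 CPM and mt-Nd5 1448 ± 437 CPM. Neighbours in this order overlap in their spread, and mt-Atp8, at 2633 ± 1420 CPM per kilobase, stands among them. Taken by complex, the 3 cytochrome c oxidase genes held 2.89% ± 0.778 of all counts (SD, n = 17), the 7 complex I genes 1.71% ± 0.427, mt-Cytb 0.612% ± 0.156 and the 2 ATP synthase genes 0.590% ± 0.230.

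The rRNAs of the small (mt-Rnr1) and large (mt-Rnr2) mitochondrial ribosomal subunits averaged 6254 ± 4331 and 6831 ± 4455 CPM per kilobase. Their levels varied widely, from 1741 to 18281 CPM per kilobase for mt-Rnr1 and from 2100 to 18713 CPM per kilobase for mt-Rnr2. The pair moved together: the count ratio of mt-Rnr2 to mt-Rnr1 stayed between 1.61 and 2.00 in the 17 libraries. Most tRNA genes were low per kilobase, with 20 of 22 at a mean of 11.6 to 445.8 CPM per kilobase, but mt-Ts1 averaged 9303 ± 6449 CPM per kilobase and mt-Te, the glutamic acid tRNA that lies directly beside mt-Nd6 on the minus strand, averaged 1789 ± 675 CPM per kilobase. The 8 minus-strand tRNA genes held 79.7 to 92.2% of all tRNA counts. A tRNA gene is shorter than a typical sequenced fragment, so counts on it can come from fragments of longer or partly cut transcripts. Where they came from was not tested, and the level of a mature tRNA was not measured.

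**Figure D1:**
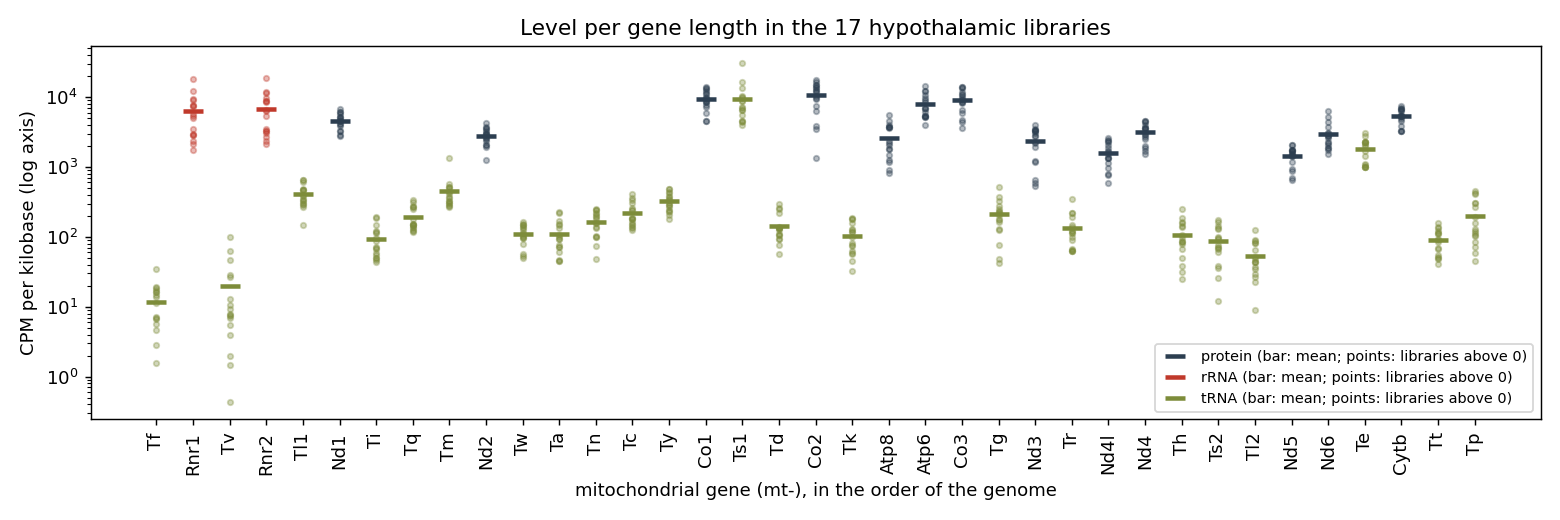
Level of each mitochondrial gene per kilobase of gene (CPM per kilobase, log axis) in the 17 hypothalamic libraries, in the order of the genome; bars are means, points are libraries above 0, and colours mark protein, rRNA and tRNA genes. The 13 protein genes and 2 rRNAs average between 1448 and 10529 CPM per kilobase, and among the tRNAs mt-Ts1 (9303) and mt-Te (1789) average highest.

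Messenger RNA and rRNA of the same genome did not keep a fixed ratio. The 13 protein genes together took 4.03 to 8.52% of all counts in the 17 libraries, and the 2 rRNAs took 0.498 to 4.71%. Control ZT6 replicate 2 had the lowest ratio: its rRNAs held 4.71% of all counts and its protein genes 4.35%, or 0.925 protein counts for each rRNA count, while control ZT6 replicate 1 of the same group had 9.80. Control ZT6 replicate 2 also had the highest tRNA share, 0.246% against 0.0680 to 0.0754% in the other 3 control ZT6 libraries, most of it from mt-Ts1, which reached 29.9% of the count of mt-Co1. In the other 16 libraries that percentage was 2.09 to 15.97. The rRNA part of all mitochondrial counts differed between index sets: it was 9.15 to 11.7% in the 4 libraries of index set 1, 14.7 to 50.6% in the 9 of index set 2 and 10.5 to 25.7% in the 4 of index set 3. Sets 1 and 2 do not overlap on this measure.

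**Figure D2:**
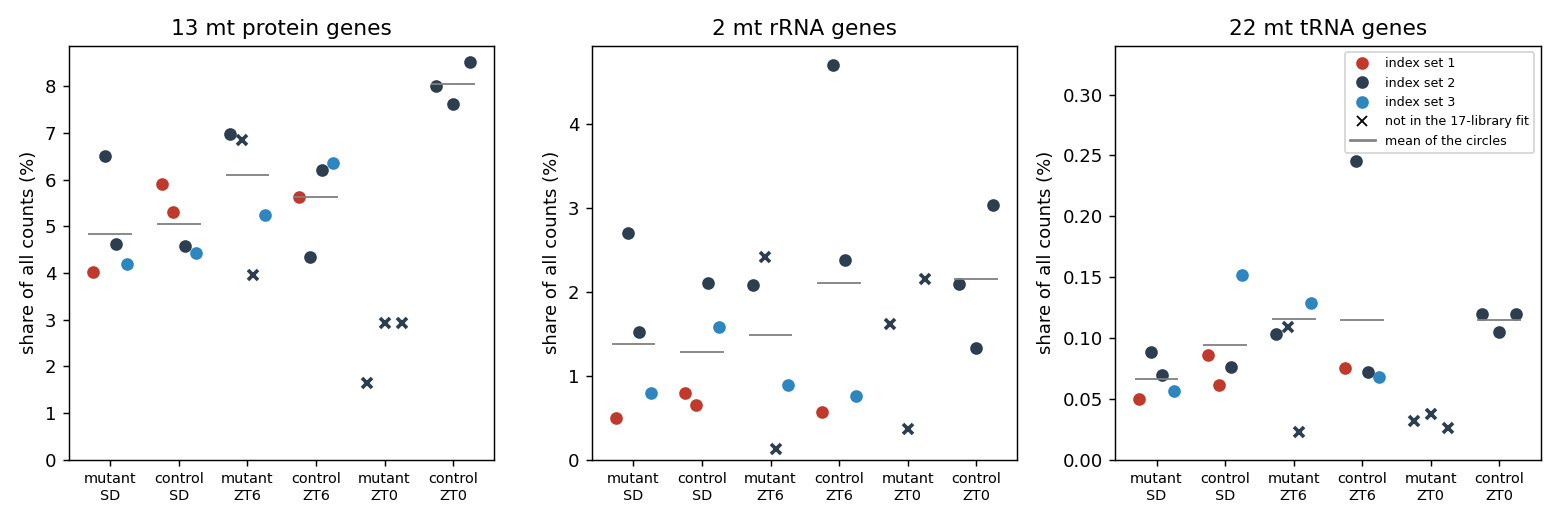
Share of all counts (%) taken by the 13 protein, 2 rRNA and 22 tRNA genes of the mitochondrial genome in each library, by group and coloured by index set; crosses are the 5 libraries outside the 17, and lines are means of the circles. All 3 control ZT0 libraries lie at or above 7.63% for the protein genes, and the 4 circles of index set 1 lie at or below 0.791% for the rRNAs.

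Index set 1 was compared with index set 2 in a fit of the 17 libraries with group and index set as terms (edgeR quasi-likelihood test). In it 18.3% of all 21346 tested genes were called at an adjusted p under 0.05, against 16 of the 37 mitochondrial genes, 2 higher and 14 lower; 10.9% of all genes were higher and 7.43% lower. The counts of mt-Rnr1 were 1663 CPM in mutant SD replicate 1, 2780 and 2215 CPM in control SD replicates 1 and 2 and 2046 CPM in control ZT6 replicate 1, against 4805 to 17459 CPM in the 9 libraries of index set 2. Every library of set 1 lies below every library of set 2 for both rRNAs, as for 2.39% of all genes of at least 1 CPM, while 11.6% lay wholly higher. The log2 fold change was -2.33 ± 0.38 (SE) for mt-Rnr1 (adjusted p = 0.00206) and -2.32 ± 0.36 for mt-Rnr2 (adjusted p = 0.00167). Among the protein genes mt-Nd3 (-2.30 ± 0.23), mt-Co2 (-2.17 ± 0.27) and mt-Co3 (-0.68 ± 0.21) were lower in set 1, and mt-Nd4l (1.15 ± 0.22) and mt-Nd5 (0.78 ± 0.24) were higher, with adjusted p-values between 0.000560 and 0.0392. The 9 tRNA genes called were all lower: mt-Tf, mt-Tg, mt-Th, mt-Tl2, mt-Tn, mt-Tr, mt-Ts2, mt-Tt and mt-Tv. By the DESeq2 alternative 21 mitochondrial genes were called, 3 of them higher, and the split of calls over all genes turned from 2320 higher and 1587 lower to 2461 higher and 2655 lower.

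The difference of mt-Co2 was smaller when the counts of its copy were added. Gm28661 held 4062 CPM in mutant SD replicate 1, beside 923.6 CPM for mt-Co2, and 3785, 3488 and 4873 CPM in control SD replicates 1 and 2 and control ZT6 replicate 1, beside 4266, 2679 and 2399 CPM for mt-Co2. In index set 2 it held 2468 CPM in mutant SD replicate 2, beside 6463 CPM for mt-Co2, and at most 135.0 CPM in the other 8 libraries. In the 4 libraries of index set 3 it was at 0. With the counts of each chromosome 1 entry added to its mitochondrial gene, the log2 fold change of set 1 over set 2 was -0.68 ± 0.18 for mt-Co2 (adjusted p = 0.0211) and -1.44 ± 0.22 for mt-Nd3 (adjusted p = 0.00170), and mt-Co3 no longer passed (-0.29 ± 0.20, adjusted p = 0.340). The copies of mt-Co3 and mt-Atp6 followed the same libraries: Gm28437 held 2706 CPM in mutant SD replicate 1 and 475.6 to 2490 CPM in the other 3 libraries of set 1, and Gm10925 held 1333 CPM in mutant SD replicate 1 and 177.9 to 1890 CPM in the other 3. Gm28437 stayed at or below 86.4 CPM in the other 13 hypothalamic libraries, and Gm10925 at or below 8.68 CPM. Gm28439, the copy of mt-Nd4, was instead at 0 in set 1 and reached 914.5, 1449 and 436.5 CPM in mutant SD replicate 4, mutant ZT6 replicate 4 and control ZT6 replicate 4, all of set 3, with 0 in control SD replicate 4 of that set; in set 2 it held 327.9 CPM in mutant SD replicate 3 and at most 63.3 CPM elsewhere. Gm29216 took 1803 to 8926 CPM in every one of the 17 libraries, and Gm10222 took none.

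**Figure D3:**
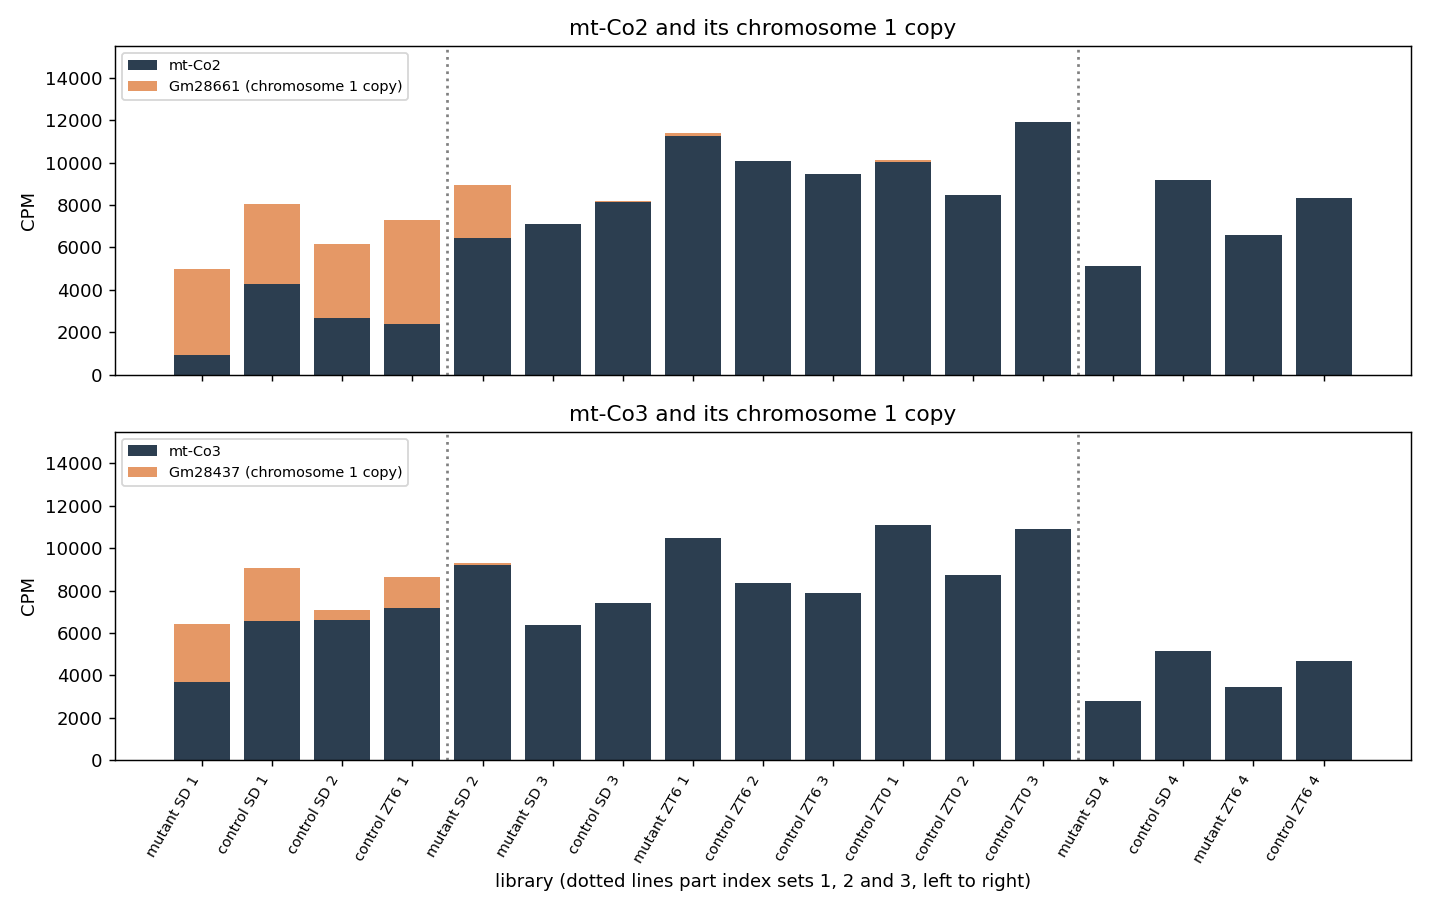
CPM counted on mt-Co2 and mt-Co3 (dark) and on their chromosome 1 copies Gm28661 and Gm28437 (orange) in the 17 hypothalamic libraries, stacked and ordered by index set. The copies hold 475.6 to 4873 CPM in the 4 libraries of index set 1 (mt-Co2 with its copy 4986 to 8051 CPM). In index set 3 mt-Co3 has 2784 to 5148 CPM, below every library of index set 2. Index set 1 overlaps that range, with 3696 CPM in mutant SD replicate 1.

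Index set 3 against index set 2 gave 11 of 37 mitochondrial genes called, 4 higher and 7 lower, against 22.4% of all genes, 12.7% higher and 9.73% lower. The 4 libraries of set 3 had 2784 CPM of mt-Co3 in mutant SD replicate 4, 3453 CPM in mutant ZT6 replicate 4, 5148 CPM in control SD replicate 4 and 4657 CPM in control ZT6 replicate 4, against 6383 to 11087 CPM in index set 2. The sets do not overlap, as for 5.47% of all genes of at least 1 CPM in this direction (8.25% lay wholly higher), and the log2 fold change was -1.08 ± 0.20 (adjusted p = 0.00199). Its copy was at 0 in set 3 and at most 86.4 CPM in set 2. The rRNAs were lower as well, with -1.33 ± 0.35 for mt-Rnr1 (adjusted p = 0.0155) and -1.38 ± 0.34 for mt-Rnr2 (adjusted p = 0.0101), though here the CPM ranges of the sets overlap. mt-Nd6 (0.98 ± 0.18, adjusted p = 0.00163) and mt-Nd5 (0.72 ± 0.22, adjusted p = 0.0279) were higher and mt-Nd3 was lower (-0.65 ± 0.21, adjusted p = 0.0415). Of the tRNAs mt-Th and mt-Ty were higher and mt-Ta, mt-Tp and mt-Tw lower.

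The tissue composition moved with these sets, and its part in the mitochondrial differences was not tested. Of the pituitary list, 7 of 9 genes were higher in set 1 and 4 of 9 in set 3, and of the blood list 5 of 5 were higher in set 3. In set 3, 7 of 10 endothelium and 4 of 10 astrocyte genes were higher. In set 1, 4 of 9 choroid plexus and 3 of 10 endothelium genes were higher and 4 of 13 myelin genes lower. Also called in set 1 were 1 of 9 fibroblast genes higher, 2 of 12 transmitter genes lower and 1 astrocyte gene each way. In set 3 these were 2 of 9 fibroblast and 1 of 9 choroid plexus genes higher, 1 transmitter gene lower and 1 myelin gene each way. Over all genes 10.9% were called higher and 7.43% lower in set 1, and 12.7% and 9.73% in set 3. Without the 3 libraries with pituitary transcripts, 0 mitochondrial genes were called in set 1, which then has 2 libraries left, and 3 in set 3; over all genes 2 and 2017 were called there. The log2 fold changes of the rRNAs without those libraries were -2.22 for mt-Rnr1 and -2.27 for mt-Rnr2 in set 1, and -1.32 and -1.38 in set 3. In a fit of all 22 libraries no mitochondrial gene was called in either set. Leaving out mutant SD replicate 1 gave 10 calls in set 1. In set 3 leaving out mutant SD replicate 4 gave 5 calls, leaving out replicate 1 or 4 of the mutant ZT6 group gave 6 each, and leaving out control ZT6 replicate 4 gave 7.

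**Figure D4:**
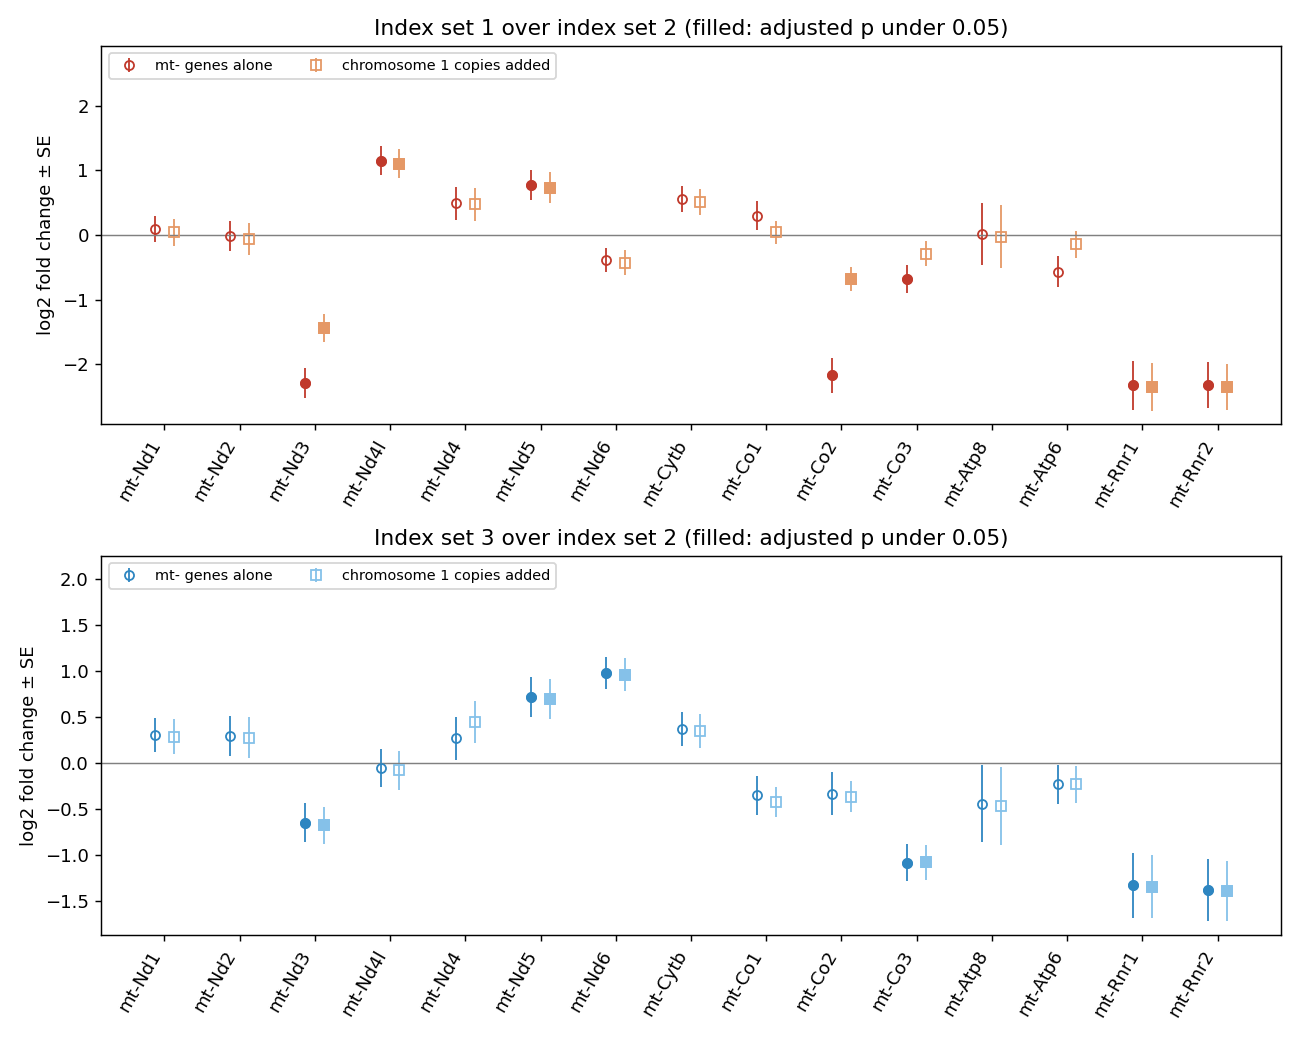
Log2 fold change ± SE of the protein and rRNA genes in index set 1 over index set 2 (top) and index set 3 over index set 2 (bottom), with the mitochondrial gene alone (circles) and with its chromosome 1 copy added (squares); filled symbols have an adjusted p under 0.05. Adding the copies brings mt-Co2 in set 1 to -0.68 and leaves the rRNAs near -2.3.

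The time of day was compared in control mice, and no gene of any kind passed. The protein genes held 5.63, 4.35, 6.21 and 6.35% of all counts in control ZT6 libraries, against 8.02, 7.63 and 8.52% in control ZT0 libraries. Every control ZT0 library lies above every control ZT6 library, with means of 5.64% ± 0.909 at ZT6 (SD, n = 4) and 8.06% ± 0.447 at ZT0 (SD, n = 3). Because all control ZT0 libraries are in index set 2, the difference was also taken within that set. The 2 control ZT6 libraries of that set averaged 2.78 percentage points less than the 3 control ZT0 libraries, against 2.42 points less over all 4. Those 2 libraries were far apart, at 4.35% (replicate 2) and 6.21% (replicate 3). With 1 library left out, the difference over all libraries ran from -2.66 to -1.995 points. Per gene, 5 of 13 protein genes were wholly lower in CPM at ZT6 than at ZT0 (mt-Co1, mt-Atp8, mt-Atp6, mt-Co3 and mt-Nd4), where 2.14% of all genes of at least 1 CPM were. So were 8 of 22 tRNA genes, among them mt-Tl1, and mt-Tp was wholly higher, where 1.71% of all genes were. mt-Atp6 had 3704, 4586, 6567 and 5757 CPM in control ZT6 libraries, against 8202, 7402 and 9727 CPM in control ZT0 libraries, and its log2 fold change was -0.66 ± 0.29 (adjusted p = 0.960, edgeR). The test across all genes called 0 of 37 mitochondrial genes and 0 of 21346 genes (background 0%), while an unadjusted p under 0.05 was found for 694 genes, 9 of them mitochondrial. DESeq2 called 23 genes and no mitochondrial one. The median log2 fold change of the protein genes was -0.48, against 0.09 over all genes, and the smallest adjusted p of a mitochondrial gene was 0.960.

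Control mice after sleep deprivation are sampled at the same clock time and are set here against the same 3 control ZT0 libraries, so this comparison is not independent of the previous one. The protein genes held 5.90, 5.30, 4.58 and 4.44% of all counts in control SD libraries, against 8.02, 7.63 and 8.52% in control ZT0 libraries. The groups do not overlap, and the mean after SD was 5.06% ± 0.677 (SD, n = 4), 3.00 points less than at ZT0. With 1 library left out, this difference ran from -3.28 to -2.77 points. The single control SD library of index set 2 was 3.47 points less. Here 7 of 13 protein genes were wholly lower in CPM (mt-Nd1, mt-Nd2, mt-Nd4, mt-Co1, mt-Co3, mt-Atp6 and mt-Atp8), where 7.45% of all genes of at least 1 CPM were, and 6 of 22 tRNA genes were; none of the 37 was wholly higher, where 8.98% of all genes were. mt-Atp6, the membrane subunit of ATP synthase that forms part of its proton path, had 3591, 4774, 3568 and 4195 CPM in control SD libraries, against 8202, 7402 and 9727 CPM in control ZT0 libraries. Its log2 fold change was -1.01 ± 0.29 with an unadjusted p of 0.00337 and an adjusted p of 0.644 (edgeR), so it did not pass. mt-Atp8 had -1.39 ± 0.48 (adjusted p = 0.644). No mitochondrial gene and no gene overall was called (background 0%), while 1561 genes, 11 of them mitochondrial, had an unadjusted p under 0.05. DESeq2 called 33 genes and no mitochondrial one. The median of the protein genes was -0.62, against 0.01 over all genes.

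The shares of the rRNAs overlapped between these times. They held 0.575, 4.71, 2.39 and 0.756% of all counts in control ZT6 libraries and 0.791, 0.653, 2.10 and 1.58% in control SD libraries, against 2.10, 1.34 and 3.04% in control ZT0 libraries, and the ranges overlap. The log2 fold changes of mt-Rnr1 and mt-Rnr2 were 0.10 ± 0.73 and 0.09 ± 0.73 at ZT6 over ZT0, and -0.75 ± 0.72 and -0.62 ± 0.72 after SD over ZT0 (edgeR, none called). Within index set 2 the rRNA share was 1.39 points higher at ZT6 than at ZT0, against -0.0524 points over all libraries, and -0.0539 points after SD over ZT0, against -0.875 points over all libraries. With index set as a term, mt-Rnr1 and mt-Rnr2 had 0.55 ± 0.40 and 0.56 ± 0.39 at ZT6 over ZT0, and 0.61 ± 0.46 and 0.75 ± 0.44 after SD over ZT0, so the sign of SD over ZT0 turned; none was called.

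Sleep deprivation against undisturbed sleep at the same hour was compared in each genotype. In mutants the protein genes held 4.03, 6.52, 4.62 and 4.20% of all counts after SD, against 6.98 and 5.24% in the 2 hypothalamic mutant ZT6 libraries. The groups overlap, and the difference of the means was -1.27 points, -1.41 within index set 2 and -1.04 within index set 3. It was -0.398 points without mutant ZT6 replicate 1 and -2.14 points without mutant ZT6 replicate 4. In controls the difference was -0.579 points over all libraries, -0.341 to -1.01 points with 1 library left out (the ends without control ZT6 replicates 4 and 2), and -0.0300, -0.696 and -1.91 points within index sets 1, 2 and 3. Of single genes mt-Ts1 and mt-Tn were wholly lower in mutants after SD, where 2.35% of all genes were (7.18% were wholly higher), and no protein gene was in either direction. No mitochondrial gene was called in either genotype and no gene overall (background 0% in both), while 461 genes in mutants, mt-Atp6 among them, and 1318 in controls had an unadjusted p under 0.05. DESeq2 called 17 genes in mutants and 18 in controls and no mitochondrial one. In mutants mt-Atp6 had 2746, 6235, 3552 and 3595 CPM after SD, against 8219 and 4723 CPM at ZT6; the groups overlap, and the log2 fold change was -0.77 ± 0.33 (edgeR, adjusted p = 1). In controls mt-Atp6 had -0.35 ± 0.27. The median log2 fold change of the 13 protein genes was -0.42 in mutants and -0.18 in controls. The test of the difference between the genotypes' responses called no gene either (background 0%), with a protein-gene median of -0.27 and 530 genes, none of them mitochondrial, at an unadjusted p under 0.05; DESeq2 called 8 genes there.

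The mutants and controls were compared directly in each state with enough tissue. After SD the protein genes averaged 4.84% ± 1.14 of all counts in mutants (SD, n = 4) and 5.06% ± 0.677 in controls (SD, n = 4), a difference of -0.216 points that was -1.57, 0.981 and -0.241 points within index sets 1, 2 and 3. It ran from -0.775 points without mutant SD replicate 2 to 0.0653 points without control SD replicate 1, and was 0.0537 points without mutant SD replicate 1. At ZT6 they averaged 6.11% ± 1.23 in mutants (SD, n = 2) and 5.64% ± 0.909 in controls (SD, n = 4), a difference of 0.472 points that was 1.70 points within index set 2 and -1.11 points within index set 3. It was -0.397 points without mutant ZT6 replicate 1, 1.34 points without mutant ZT6 replicate 4 and 0.0448 points without control ZT6 replicate 2. The sign differed between index sets in both states. After SD no mitochondrial gene was wholly higher or lower in mutants, where 1.25% of all genes were wholly higher and 1.34% wholly lower. At ZT6 mt-Td was wholly higher in mutants and mt-Tp wholly lower, where 1.31% and 3.56% of all genes were. No mitochondrial gene and no gene overall was called in either state (background 0% in both), with 631 genes after SD and 566 at ZT6 at an unadjusted p under 0.05, none of them mitochondrial, and 1 and 15 genes called by DESeq2, none of them mitochondrial. Protein-gene medians were -0.06 after SD and 0.21 at ZT6, and mt-Co2 after SD had -0.37 ± 0.57.

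At ZT0 all 3 mutant libraries are among those with few neural transcripts, so the genotype and the tissue of these libraries cannot be told apart, and the comparison is given as a description of them. It was fitted over all 22 libraries. Of 20763 tested genes 50.1% were called, 20.9% higher and 29.2% lower, and the median log2 fold change of all genes was -0.22, or 0 with the size factors of DESeq2. The median of the 13 protein genes was -1.38, or -1.16 relative to that of all genes. The protein genes held 1.64, 2.92 and 2.93% of all counts in mutant ZT0 libraries, against 8.02, 7.63 and 8.52% in control ZT0 libraries. All 13 protein genes were wholly lower in CPM in the mutant libraries, where 46.9% of all genes of at least 1 CPM were and 22.2% were wholly higher. By the test 6 of 13 were lower and none higher: mt-Nd1, mt-Nd2, mt-Nd4 and mt-Nd4l of complex I, mt-Cytb and mt-Atp6. mt-Nd2 had 537.5, 948.7 and 1377 CPM in mutant ZT0 libraries, against 3897, 3638 and 4401 CPM in control ZT0 libraries, a log2 fold change of -1.61 ± 0.46 (adjusted p = 0.00709). mt-Nd1 had 980.2, 1571 and 1988 CPM in mutant ZT0 libraries, against 5792, 5542 and 6361 CPM in control ZT0 libraries (-1.50 ± 0.44, adjusted p = 0.00798). mt-Nd4 had 792.9, 1688 and 2284 CPM in mutant ZT0 libraries, against 6132, 6314 and 6200.2 CPM in control ZT0 libraries (-1.52 ± 0.49, adjusted p = 0.0154). The calls of mt-Cytb (-1.33 ± 0.49, adjusted p = 0.0287), mt-Atp6 (-1.35 ± 0.49, adjusted p = 0.0276) and mt-Nd4l (-1.54 ± 0.63, adjusted p = 0.0487) were lost in edgeR with the size factors of DESeq2, whereas mt-Nd1, mt-Nd2 and mt-Nd4 still passed. DESeq2 itself also called 6 of the 13. Over all 37 genes 19 were called, and 12 to 13 with any of the 6 ZT0 libraries left out. The remaining 7 had log2 fold changes of -0.94 to -1.62 and did not pass.

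Neither rRNA was called in these libraries. mt-Rnr1 had 6972, 1488 and 11576 CPM in mutant ZT0 libraries, against 7186, 4805 and 11657 CPM in control ZT0 libraries, and the groups overlap (0.20 ± 0.95, adjusted p = 0.879). mt-Rnr2 had 9229, 2162 and 10028 CPM in mutant ZT0 libraries, against 13829, 8550.1 and 18725 CPM in control ZT0 libraries (-0.46 ± 0.92, adjusted p = 0.698). The ratio of the 2 rRNAs was lower: mt-Rnr2 per mt-Rnr1, per length, was 0.799, 0.877 and 0.523 in mutant ZT0 libraries, below the 0.970 to 1.21 of the 17 hypothalamic libraries. In mutant ZT6 replicate 3, which has the same few neural transcripts, that ratio was 1.30 and the rRNAs held 0.123% of all counts, with 32.2 protein counts for each rRNA count. The 4 libraries with little neural RNA therefore spanned 1.01 to 32.2 protein counts for each rRNA count, a wider range than the 0.925 to 9.80 of the 17.

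Of the 22 tRNA genes 12 were called lower and 1 higher in mutant ZT0 libraries. Over all genes 29.2% were called lower and 20.9% higher, so calls of higher tRNA genes were fewer than that share. mt-Te had 37.3, 44.5 and 31.4 CPM in mutant ZT0 libraries, against 191.5, 142.7 and 209.4 CPM in control ZT0 libraries (-1.75 ± 0.48, adjusted p = 0.00550). mt-Tm, the methionine tRNA, had 5.55, 0.218 and 0.641 CPM in mutant ZT0 libraries (86, 7 and 2 counts), against 31.4, 35.4 and 28.6 CPM in control ZT0 libraries (-3.24 ± 1.05, adjusted p = 0.0149). mt-Ts1 (-1.27 ± 0.78, adjusted p = 0.182) and mt-Tl1, a leucine tRNA (-0.94 ± 0.39, adjusted p = 0.0519), did not pass. The 1 gene that was higher is mt-Tp, the proline tRNA, singled out after its values were seen. It lies on the minus strand at the end of the coding part of the genome and faces the control region:
mt-Tp, chrM:15356-15422, minus strand: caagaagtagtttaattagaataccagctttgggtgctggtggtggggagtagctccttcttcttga
It had 15.2, 12.9 and 30.4 CPM in mutant ZT0 libraries, against 7.50, 5.59 and 6.90 CPM in control ZT0 libraries (1.99 ± 0.78, adjusted p = 0.0400), a call lost without the low-count filter (mt-Tp 1.98 ± 0.76, adjusted p = 0.0544). In the 17 hypothalamic libraries mt-Tp ran from 3.02 to 30.3 CPM, so the mutant ZT0 values lie inside that range or, in replicate 3, just above it. The top of that range is control SD replicate 2, of index set 1. All mutant ZT0 libraries are in index set 2, whose hypothalamic libraries ran from 5.59 to 20.2 CPM, and replicate 3 lies above these. Of the marker lists, 13 of 13 myelin, 10 of 12 transmitter and 8 of 10 astrocyte genes were called lower in this comparison. So were 4 of 5 blood and 2 of 9 pituitary genes. Of the fibroblast and meningeal genes 7 of 9 were higher and 2 lower. Choroid plexus had 1 of 9 higher and 5 lower, and endothelium 4 of 10 higher and 4 lower. These counts stand beside 20.9% of all genes called higher and 29.2% called lower. The part of the markers in the mitochondrial values was not tested.

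**Figure D5:**
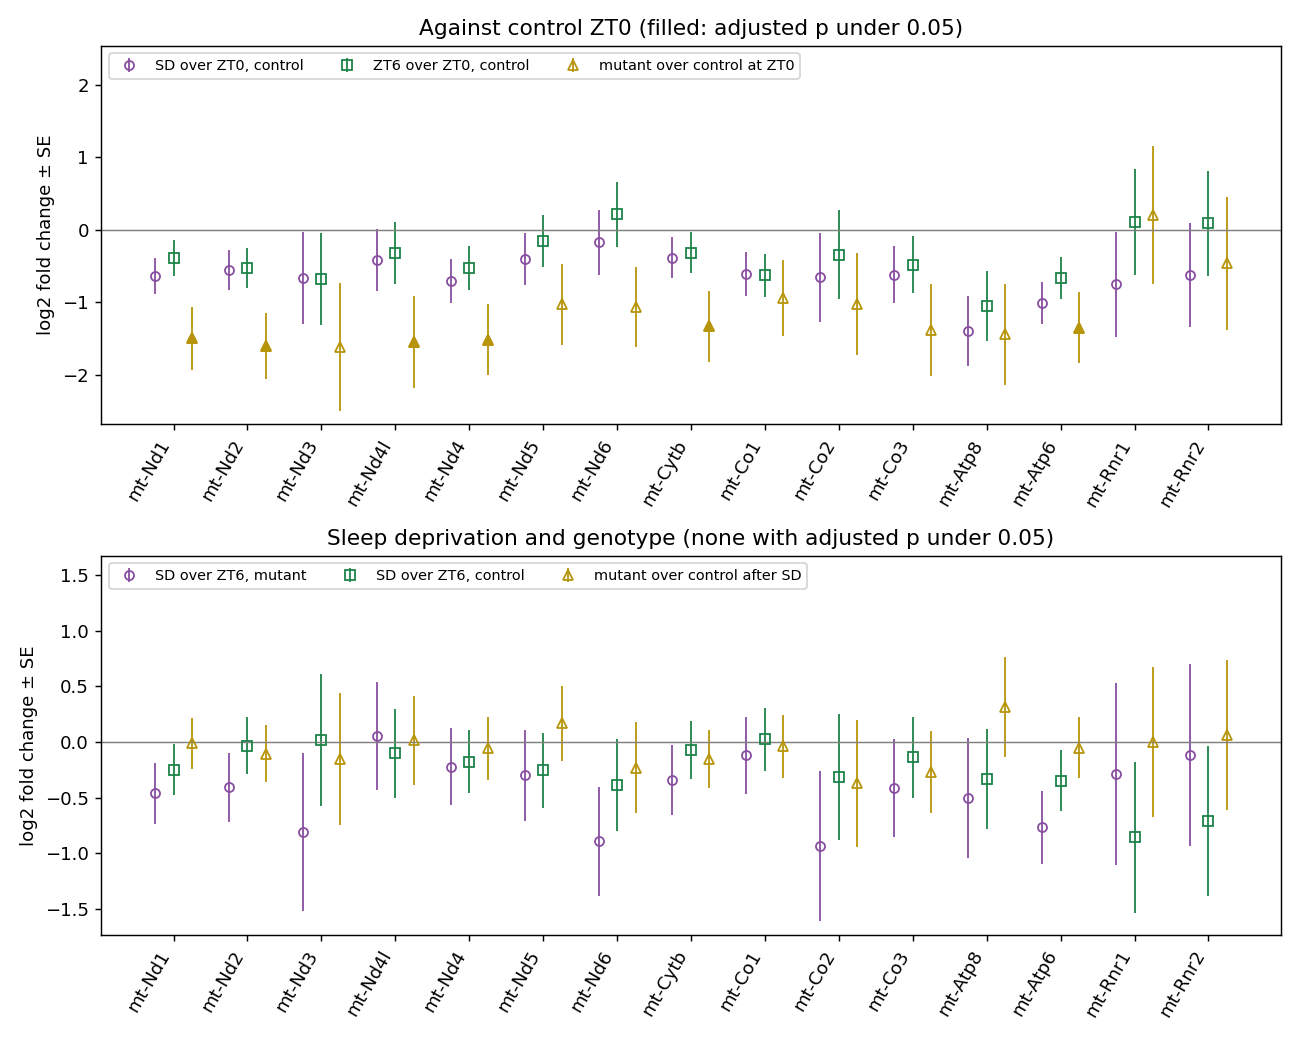
Log2 fold change ± SE of the protein and rRNA genes. The top panel shows the comparisons that use control ZT0 libraries (SD over ZT0 and ZT6 over ZT0 in controls, and mutant over control at ZT0), and the bottom panel shows SD over ZT6 in each genotype and mutant over control after SD. Filled symbols have an adjusted p under 0.05: they are the 6 protein genes called at ZT0 between mutant and control, from -1.33 for mt-Cytb to -1.61 for mt-Nd2.

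None of the listed nuclear genes that work with the mitochondrial genome was called between times of day. Fitted values opposite in sign to those of the mitochondrial protein genes were found for most nuclear subunits and mitochondrial ribosomal protein genes. The 75 tested nuclear subunits of the respiratory chain and ATP synthase held 1.04, 1.60, 0.759 and 0.986% of all counts in control ZT6 libraries and 1.13, 0.978, 1.11 and 1.33% in control SD libraries, against 0.897, 0.808 and 0.820% in control ZT0 libraries. Their log2 fold changes were positive for 72 of 75 at ZT6 over ZT0 (median 0.54) and for 74 of 75 after SD over ZT0 (median 0.50), none called, where 59.7% and 51.0% of all genes were positive, and both comparisons use the same ZT0 libraries. Within index set 2 their share was 0.340 points higher at ZT6 than at ZT0, against 0.255 points over all libraries. The control ZT6 libraries of that set held 1.60% (replicate 2) and 0.759% (replicate 3), the latter below every control ZT0 library. After SD over ZT0 the difference was 0.266 points within index set 2, from 1 control SD library, and 0.295 points over all libraries. The protein genes of the mitochondrial genome gave 4.53 ± 0.968 counts for each count of the nuclear subunits after SD (SD, n = 4) and 5.69 ± 2.29 at ZT6 (SD, n = 4), against 9.59 ± 0.742 at ZT0 (SD, n = 3), in control mice. The single libraries had 5.21, 5.42, 4.14 and 3.35 after SD and 5.42, 2.71, 8.18 and 6.44 at ZT6, all below the 8.93, 9.44 and 10.4 of ZT0. For the 79 tested genes of the mitochondrial ribosome, 69 values were positive at ZT6 over ZT0 (median 0.36) and 71 after SD over ZT0 (median 0.40), with none called. At ZT6 over ZT0, 10 of 16 genes for transcription and copying of mitochondrial DNA were positive. So were 14 of 22 for processing and decay of mitochondrial RNA and 4 of 9 biogenesis regulators. After SD over ZT0 the counts were 12, 15 and 5, beside the 59.7% and 51.0% of all genes. After SD, mutants against controls gave negative values for all 75 nuclear subunits (median -0.44) and for 72 of 79 ribosomal protein genes (median -0.33), none called, where 47.4% of all genes were positive, while the mitochondrial protein genes had a median of -0.06. The nuclear subunits held 0.822, 0.922, 0.984 and 0.934% of all counts in mutant SD libraries, which overlap the control SD libraries. The difference of the means was -0.221 points, and -0.233, -0.155 and -0.393 points within index sets 1, 2 and 3. Mutant SD replicates 1 and 4 are libraries with pituitary transcripts, and no control SD library is. The part of this in the difference was not tested.

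In the mutant ZT0 libraries few nuclear partner genes were called. Of the nuclear subunits 5 of 75 were higher and 1 lower than in control ZT0 libraries, with Ndufa9 (2.85 ± 0.65), Ndufv3 (1.27 ± 0.44) and Ndufa7 (1.22 ± 0.49), all of complex I, and Cox6a1 (1.19 ± 0.37), of cytochrome c oxidase, as the 4 largest. Of the mitochondrial ribosomal protein genes 18 of 79 were higher and none lower, led by Mrpl54 (1.90 ± 0.50), Mrps18b (1.73 ± 0.39), Mrpl52 (1.72 ± 0.50) and Mrps24 (1.45 ± 0.40). Of 22 genes for processing and decay of mitochondrial RNA, Rexo2 (2.92 ± 0.62), a nuclease of short RNA, Mtpap (1.95 ± 0.56), the mitochondrial poly(A) polymerase, and Hsd17b10 (1.74 ± 0.35), a subunit of the enzyme that cuts tRNA 5′ ends, were higher and Fastkd1 (-1.18 ± 0.34) was lower. Of 16 genes for transcription and copying of mitochondrial DNA, Mterf4 (1.83 ± 0.46) was higher and Mterf2 (-1.82 ± 0.39) lower. Of 9 regulators of mitochondrial biogenesis, the coactivators Ppargc1a (-4.57 ± 0.88) and Ppargc1b (-1.88 ± 0.77) were lower and Pprc1 (1.58 ± 0.44) and Gabpa (1.19 ± 0.45) higher. These counts stand beside 20.9% of all genes called higher and 29.2% called lower: the share of the ribosomal protein genes called higher is near that background, and the share of nuclear subunits called in either direction is below it.

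The nuclear partner lists also held called members between index sets. Beside them, 18.3% of all genes were called in set 1 over set 2 (10.9% higher and 7.43% lower). In set 3 over set 2 it was 22.4% (12.7% higher and 9.73% lower). In set 1 the shares of nuclear subunits and of ribosomal protein genes called in either direction were below that of all genes. In set 1 over set 2, 1 of 75 nuclear subunits was higher and 9 lower, with the cytochrome c oxidase subunit Ndufa4 (-4.58 ± 0.84), Ndufa9 (-1.44 ± 0.37), cytochrome c itself (Cycs, -1.43 ± 0.16) and Ndufv2 (-1.12 ± 0.21) as the largest. In set 3 over set 2, 6 of 75 were higher and 11 lower, a share near that of all genes, among them Ndufa4, which had 0 counts in all 4 libraries of set 3, Ndufs6 (1.13 ± 0.33), Ndufs8 (1.11 ± 0.32) and Ndufb3 (1.06 ± 0.24). Of the 79 ribosomal protein genes 8 were lower in set 1 and none higher, and in set 3 6 were higher and 10 lower. Of the 22 genes for processing and decay of mitochondrial RNA, 8 were lower in set 3 and none higher, where 9.73% of all genes were lower; the largest were 1110008L16Rik (-0.62 ± 0.14), Fastkd1 (-0.61 ± 0.11), Ptcd2 (-0.59 ± 0.14) and Fastkd5 (-0.54 ± 0.19). In set 1, Fastk (0.71 ± 0.14) and Ptcd1 (0.54 ± 0.14) of that list were higher and Lrpprc (-0.34 ± 0.08), which stabilises mitochondrial messenger RNA, was lower. Of the 9 biogenesis regulators, Esrra (0.52 ± 0.15), Nrf1 (0.49 ± 0.13) and Gabpb1 (0.32 ± 0.11) were higher in set 3, and Esrra (0.50 ± 0.15) and Pprc1 (0.36 ± 0.11) were higher and Tfam lower in set 1. Of 16 genes for transcription and copying of mitochondrial DNA, Polrmt, the mitochondrial RNA polymerase (0.52 ± 0.12), was higher in set 1 and Mterf3 (-0.70 ± 0.16), Mterf2 (-0.57 ± 0.16) and Tfam (-0.48 ± 0.13), which packages mitochondrial DNA and helps start its transcription, were lower. In set 3 Twnk, the helicase of mitochondrial DNA (0.89 ± 0.20), and Top1mt, its topoisomerase (0.83 ± 0.15), were higher and Mterf3 (-0.91 ± 0.15) and Mterf2 (-0.72 ± 0.16) lower.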

How the data were processed

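RNA of 22 mice, labelled as hypothalamus, was analysed, of which 17 libraries are described as hypothalamic here. Per the labels' protocols, total RNA in Trizol was made into TruSeq poly(A) libraries and sequenced on a NovaSeq system; reads were checked with FastQC, trimmed with Trimmomatic 0.38 and quantified with kallisto 0.44.0, and tximport summed them to genes. The authors deposited estimated counts per gene, rounded to whole numbers; whether reads were counted by strand is not given in the sources used here. Of 41461 lines, 5 with a repeated identifier were dropped. Groups came from the labels. Nothing says whether libraries differ in more than the mouse, so p-values measure the spread between these libraries.

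The edgeR 4.0.16 quasi-likelihood test (R 4.3.3, TMM scaling, filterByExpr with a minimum count of 10 and total of 15, Benjamini-Hochberg adjustment over all genes, threshold 0.05) was fitted once over the 17 libraries with at least 1000000 counts and a myelin sum of at least 500 CPM. That leaves 2 mutant ZT6 libraries. Mutant against control at ZT0 was fitted over all 22. The index set contrasts were added after the data were seen. DESeq2 1.42.0 was an alternative, with other scaling, filters, library sets and left-out replicates. Scripts were tested on simulated data. Standard errors were derived from the F statistic of each gene. CPM divides a count by the total of its library, scaled to 1000000. A count of 3, taken as the limit that 0 allows, is 0.0639 to 0.961 CPM in 21 libraries and 408.3 CPM in mutant ZT6 replicate 2, for counting error only. Sequences and coordinates are those of GENCODE M21 (GRCm38), which held 41193 of the 41456 identifiers. Copies were 15 nuclear entries matching at least 100 bases at 90% identity.

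Named are the 13 protein and 2 rRNA genes, the 4 tRNA genes of highest mean count (mt-Ts1, mt-Te, mt-Tl1, mt-Tm), the 5 copies of highest mean count (Gm29216, Gm28661, Gm28437, Gm10925, Gm28439), and of nuclear lists the called members with the 4 largest changes; others were named after their values were seen. The genes and lists were chosen with earlier results of these data known.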

Additional observations from a re-analysis of the deposited data

Results flagged for a closer look

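In groups of 4 libraries, a library was marked where its gap to the nearest other library took most of the range of its group (Dixon's test at the 95% level). Of 112 groups tested 17 were marked, and chance marks about 1 in 20. Mutant ZT6 counts here include all 4 libraries of that group.

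Among the mitochondrial genes, mt-Atp8 stood at 772.5 CPM in mutant SD replicate 2, with 305.3 to 365.7 CPM in the other mutant SD libraries, and at 769.3 CPM in control SD replicate 2, with 164.6 to 254.2 CPM in the other control SD libraries. mt-Co3 stood at 10460.0 CPM in mutant ZT6 replicate 1, with 2994 to 3453 CPM in the other 3. Of those, replicate 2 is the library of 7348 counts, replicate 3 has few neural transcripts and replicate 4 is in index set 3. Replicate 1 lies within the 6383 to 11087 CPM of the 9 hypothalamic libraries of index set 2, its own set. mt-Nd6 stood at 2289 CPM in control SD replicate 4, with 954.4 to 1126 CPM in the others. In control ZT6 replicate 2, mt-Ts1 stood at 2125 CPM, with 309.9 to 483.6 CPM in the others, and the tRNA share at 0.246%, with 0.0680 to 0.0754% in the others. The count of mitochondrial protein genes per nuclear subunit count was 7.07 in mutant SD replicate 2 and 4.49 to 4.90 in the other mutant SD libraries.

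Of the chromosome 1 copies, Gm29216 stood at 8926 CPM in control ZT6 replicate 2, with 3421 to 3811 CPM in the others of its group. Control ZT6 replicate 1 had 4873 CPM of Gm28661, with at most 2.49 CPM in the others, 1457 CPM of Gm28437, with 0 in the others, and 1890 CPM of Gm10925, with at most 8.68 CPM in the others. Mutant SD replicate 1 had 2706 CPM of Gm28437, with at most 86.4 CPM in the others, and 1333 CPM of Gm10925, with at most 1.88 CPM in the others. Control SD replicate 1 had 1584 CPM of Gm10925, with at most 177.9 CPM in the others. Gm28437 stood at 7621 CPM in mutant ZT6 replicate 2, the library of 7348 counts, with at most 0.732 CPM in the others. Gm28439 stood at 1449 CPM in mutant ZT6 replicate 4, with at most 138.4 CPM in the others, and at 436.5 CPM in control ZT6 replicate 4, with at most 63.3 CPM in the others.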

How the results depend on the processing

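No paired analysis was possible because the labels give no replicate numbers. With index set as a term, which pairs no samples, the median of the 2 rRNAs turned sign for SD over ZT0 (0.68, against -0.69 without the term) and SD over ZT6 (0.12, against -0.78) in controls, mutant over control after SD (-0.69, against 0.03) and the difference of the SD responses (-0.26, against 0.58), none called. Of 997 values recomputed under an alternative, 870 were marked as unchanged. For single genes this meant the same direction and side of the threshold, and for counts of calls a size within 1.5 times. For protein-gene medians, share differences and the level of mt-Co2 it meant a shift smaller than the SD between libraries. Direction was not checked for these, and some share differences marked as unchanged turned sign. In the 7 comparisons of the hypothalamic libraries, 0 mitochondrial genes were called under each setting run. For mutant against control at ZT0, 19 mitochondrial genes were called, against 12 with the size factors of DESeq2 in edgeR and 11 without the low-count filter. Leaving out 1 replicate gave 12 to 13, so leaving out any of the 6 ZT0 libraries lowers the count. The sign of mt-Rnr1 there turned without control ZT0 replicate 2 (-0.06) and without mutant ZT0 replicate 3 (-0.30), over a range of -0.30 to 0.66, and the median of the 2 rRNAs was -0.13 but 0.14 with the size factors of DESeq2. For index set 1 over set 2, 16 were called, against 0 in a fit of all 22 libraries, 0 without the libraries with pituitary transcripts and 10 to 18 with 1 replicate left out. For index set 3 over set 2, 11 were called, against 0, 3 and 5 to 13 in the same order and 6 with a 2-fold limit added. Where leaving out a library left 1 in a group, it was taken to vary like the other groups. The protein-gene median moved in the fit of all 22 libraries to -0.05 (SD in mutants), -0.07 (mutant against control at ZT6) and 0.05 (the difference of the SD responses), and to -0.59 for that difference without mutant SD replicate 2. The causes were not tested.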
